A study of Mus musculus with 10 samples.

Results

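The genes described here are 9 integrin subunits (Itgae, Itgb7, Itga4, Itgb1, Itgal, Itgb2, Itgav, Itga6 and Itgb3) and Selplg, which encodes P-selectin glycoprotein ligand 1 (PSGL-1). They were taken by name: every probe set that the array annotation assigns to 1 of these genes alone was kept, which gave 27 of the 45037 probe sets tested, for 10 of 18193 genes. A probe set is a group of short oligonucleotides on the array that reads 1 transcript or part of it.

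RNA came from CD4+CD25+ lymph node cells of BALB/c mice, the fraction in which regulatory T cells (Treg cells) are found. The groups were mice homozygous for loss of SHP-1 (me, 3 arrays), heterozygous mice (he, 3 arrays) and wild type mice (WT, 4 arrays), all 17 to 19 days old. SHP-1 is a tyrosine phosphatase encoded by Ptpn6, and its homozygous loss gives the inflammatory motheaten phenotype. The loss is carried by the mouse and is not limited to T cells, the cells were separated with a kit from pooled nodes of several sites, and they were neither cultured nor treated. The labels call the arrays of a group biological replicates and do not name separate animals, so the tests measure the spread between these arrays.

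Integrins are pairs of an alpha and a beta subunit that bind matrix proteins or receptors on other cells after signals inside the cell have opened them. On T cells, alpha 4 with beta 7 binds MAdCAM-1 of gut vessels, alpha 4 with beta 1 binds VCAM-1 and fibronectin, alpha L with beta 2 (LFA-1) binds ICAM proteins, and alpha E (CD103) with beta 7 binds E-cadherin of epithelium. PSGL-1 carries the sugars that selectins bind when a leukocyte rolls along a vessel wall. Itgae is a known TGF-beta target and marks a subset of Treg cells.

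The sequences around 3 transcription start sites are shown because these are the members with a probe set that was higher in me than in WT within each array set, as described below, and that the promoter table holds. Each runs 5′ to 3′ from 250 bases before to 50 bases after the start in RefSeq (GRCm38.p6), at chr15:102231886-102232185 on the minus strand for Itgb7 (a start inside the annotated gene, not at its 5′ end), chr8:128685404-128685703 on the plus strand for Itgb1 and chr2:79255176-79255475 on the plus strand for Itga4. Capitals mark a match on either strand to GGGCGG (the core of a GC box), TGTGGT (the core of a RUNX site) or CCGGAA (the core of an ETS site). No motif overlapped another.
Itgb7: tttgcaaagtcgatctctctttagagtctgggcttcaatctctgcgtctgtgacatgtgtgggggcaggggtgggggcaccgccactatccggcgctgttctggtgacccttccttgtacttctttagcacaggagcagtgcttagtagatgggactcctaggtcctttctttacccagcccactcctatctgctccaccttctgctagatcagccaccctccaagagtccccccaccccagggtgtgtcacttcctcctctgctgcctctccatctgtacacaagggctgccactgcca
Itgb1: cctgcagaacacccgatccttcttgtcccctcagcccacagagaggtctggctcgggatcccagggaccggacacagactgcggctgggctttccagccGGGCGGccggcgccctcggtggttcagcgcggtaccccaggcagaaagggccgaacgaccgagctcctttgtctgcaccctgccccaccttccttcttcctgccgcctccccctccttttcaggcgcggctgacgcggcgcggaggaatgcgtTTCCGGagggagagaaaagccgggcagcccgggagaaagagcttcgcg
Itga4: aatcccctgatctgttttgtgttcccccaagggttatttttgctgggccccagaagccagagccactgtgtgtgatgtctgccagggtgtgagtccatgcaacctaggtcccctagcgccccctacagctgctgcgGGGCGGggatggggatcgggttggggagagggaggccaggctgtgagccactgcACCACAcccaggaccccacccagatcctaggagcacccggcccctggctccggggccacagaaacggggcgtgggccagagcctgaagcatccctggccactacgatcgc
The Itgb7 window held none of these letters. The Itgb1 window held GGGCGG at bases 100 to 105 and CCGGAA, on the opposite strand, at bases 253 to 258, counted from the 5′ end. The Itga4 window held GGGCGG at bases 137 to 142 and TGTGGT, on the opposite strand, at bases 191 to 196. Among 32851 promoters of the table, 35.7% held GGGCGG, 16.8% held TGTGGT and 14.9% held CCGGAA, so these matches are frequent letters and describe the windows alone.

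The arrays fell into 2 sets by correlation, and the sets crossed the genotypes. Set A held me 1, me 3, he 1, WT 1 and WT 2, and set B held me 2, he 2, he 3, WT 3 and WT 4. Pearson correlation over probe sets ran between 0.970 and 0.996 for arrays of 1 set, and between 0.854 and 0.944 for arrays of different sets. Values below are log2(intensity + 32) after quantile normalisation, and each difference is given from the limma fit over all arrays and, where stated, with array set as a block. Ptpn6 matched the labels: its log2 values at the dimmer probe set were 8.05, 8.31 and 8.17 in me, 8.75, 8.71 and 8.98 in he, and 9.22, 9.08, 9.62 and 9.13 in WT. The 7 Treg-defining genes (Cd3e, Cd4, Foxp3, Il2ra, Ctla4, Ikzf2 and Tnfrsf18) were all measured and none lay below the median level. With the block, 4 were higher and 3 lower in me than in WT, with a median of 0.15. Ctla4 differed most, by 0.58 ± 0.25 (SE, limma adjusted p = 0.989). Il2ra was lower on every me array than on every he array, where 2.72% of all probe sets were apart in either direction. Its blocked me minus he difference was -0.28 ± 0.11 (limma adjusted p = 0.999). Between me and WT the Il2ra values overlapped, with a blocked difference of -0.20 ± 0.10 (limma adjusted p = 0.989). Foxp3 was at 10.60 to 11.15 in set A and 11.30 to 11.58 in set B. The summed intensity of 9 plasma cell markers was 7326 to 17753 in me, 5855 to 7375 in he and 5439 to 7353 in WT, so the ranges overlapped, and with the block 5 of the 9 were higher and 4 lower in me than in WT, with a median of 0.02. Of these, Jchain (the joining chain of polymeric antibodies) was at 9.82, 7.96 and 10.14 in me, 7.21, 7.16 and 7.04 in he, and 7.06, 7.10, 7.11 and 7.03 in WT. Ighm (immunoglobulin mu heavy chain) was at 13.01, 11.77 and 13.56 in me, 11.49, 11.07 and 11.40 in he, and 11.42, 11.42, 10.65 and 11.22 in WT. Sums of 10 neutrophil markers were 1563 to 2234 in me, 1541 to 1956 in he and 1499 to 1821 in WT. With the block, 8 of the 10 were higher and 2 lower in me than in WT, with a median of 0.20. Over all genes 49.4% were higher, with a median of 0. Sums of 11 B cell markers were 1924 to 2357 in me, 1742 to 2207 in he and 1705 to 2312 in WT. With the block, 8 were higher and 3 lower in me than in WT (median 0.07). Sums of 13 macrophage and monocyte markers were 3038 to 3075 in me, 2694 to 3177 in he and 2674 to 2994 in WT. Of these, 9 were higher and 4 lower in me (median 0.01). Sums of 9 dendritic cell markers were 2030 to 2633 in me, 1963 to 3059 in he and 1840 to 3141 in WT. Of these, 3 were higher and 6 lower in me (median -0.01). Platelet, endothelial and erythroid markers were mostly dim, with 7 of 9, 8 of 10 and 3 of 4 below the median level. In such bulk RNA, fewer cells of a type and less RNA per cell cannot be told apart.

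Of the 6 measured markers of gamma delta T and innate lymphoid cells, with the block, 4 had a negative me minus WT difference, with a median of -0.31, and 2 a positive one. Cd163l1 was at 9.08, 8.75 and 8.59 in me, 10.15, 9.75 and 8.65 in he, and 10.32, 10.55, 9.78 and 9.35 in WT. Trgv4 was at 8.32, 8.07 and 8.11 in me, 9.17, 9.67 and 8.22 in he, and 9.27, 8.88, 9.38 and 8.37 in WT. Blk was at 7.72, 7.47 and 7.69 in me, 8.19, 8.82 and 7.77 in he, and 8.25, 8.25, 8.41 and 7.90 in WT. At Cd163l1, Trgv4 and Blk every me array lay below every WT array, while Sox13, Maf and Il1r1 overlapped. Of all probe sets 1.64% were apart in either direction. None of these markers passed after adjustment (limma). The summed intensity of the 6 was 2897 to 3771 in me, 2712 to 4303 in he and 2920 to 5281 in WT. Sums of 11 CD8 and NK cell markers, at 3756 to 8842 in me, 3561 to 8904 in he and 3334 to 7241 in WT, followed the array sets through Cd8a. With the block, 8 of the 11 were higher and 3 lower in me than in WT, with a median of 0.16. Cd8a read 7.63 and 7.76 on the me arrays of set A, 7.54 on the he array of set A and 7.56 and 7.66 on the WT arrays of set A. On set B it read 12.38 in me, 11.34 and 12.45 in he, and 12.10 and 12.13 in WT, while Cd8b1 read 7.38 to 7.80 on all arrays. The array me 3 lay between the sets on the first principal component, at -25.3, where the other set A arrays lay between -56.8 and -54.2 and set B arrays between 41.0 and 60.6.

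The first comparison asks which of these adhesion genes differ when both copies of Ptpn6 are lost. None of the 27 probe sets passed for me against WT after Benjamini-Hochberg adjustment over all probe sets with limma, either without a block (0% of all probe sets called) or with array set as a block (0.00666% called). At an unadjusted p under 0.05 the fit without a block gave 1 member probe set, against 0.622% of all, and the blocked fit gave 4, against 4.29% of all. Those 4 read Itgb7, Itgb1 (2 probe sets) and Selplg, and all 4 were higher in me. Itgb7 was 1.26-fold, Itgb1 1.25-fold and 1.26-fold, and Selplg 1.15-fold higher in me in the blocked fit. Of the 27 probe sets, 6 were higher in me than in WT within both array sets without overlap, where 4.37% of all probe sets were, and 0 were lower in that way, where 7.83% were. The 6 read Itgb7, Itgb1 (2), Itga4, Itgb2 and Selplg. The median blocked difference was 0.02 over the 27 probe sets and -0.007 over all. Over the 10 genes, each at its brightest probe set, it was 0.09, against 0 over all genes.

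**Figure D1:**
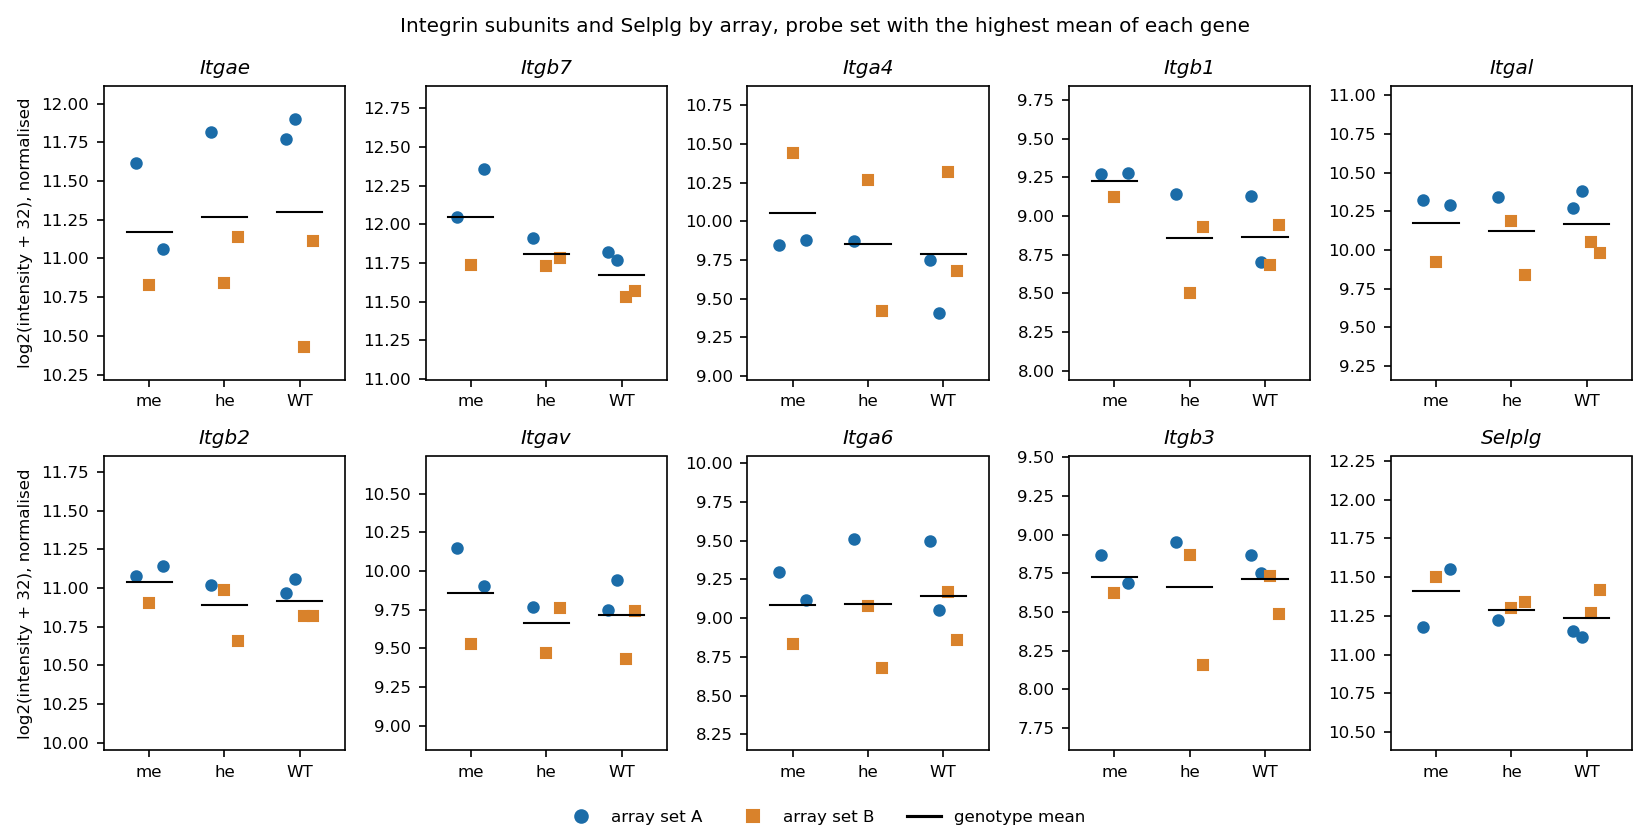
Log2(intensity + 32) after quantile normalisation of the brightest probe set of each gene, me left of he left of WT, with 1 point per array (circles for set A, squares for set B), bars for group means, and y axes that do not start at 0. The highest point is a me array for Itgb7, Itgb1, Itga4, Itgb2, Itgav and Selplg. It is a he or WT array for Itgae, Itgal, Itga6 and Itgb3. The Itgae points spread further within a genotype than between genotypes.

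Itgb7 encodes beta 7, the partner of alpha 4 in gut homing and of alpha E at epithelium, and lies at chr15:102215994-102233405 (GRCm38.p6). Its probe set, at the 98.9th percentile of all levels, read 12.05, 11.74 and 12.36 in me, 11.91, 11.73 and 11.78 in he, and 11.82, 11.77, 11.53 and 11.57 in WT. The me 1 and me 3 arrays lay above every WT array, and me 2 lay inside the WT range but above both WT arrays of its own set. The me minus WT difference was 0.38 ± 0.14 (SE; adjusted p = 1 with limma; 2-sided exact permutation p = 0.171). With array set as a block it was 0.33 ± 0.08, with a 95% interval of 0.14 to 0.52 (limma adjusted p = 0.843), and set A alone gave 0.41 and set B 0.19. Before normalisation the deposited intensities were 5596, 2676 and 4991 in me, 5516, 2616 and 2308 in he, and 5266, 4221, 2340 and 2759 in WT, and the groups overlapped. Without me 3 the blocked difference was 0.22.

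Itgb1 encodes beta 1, the common partner of alpha 4 and alpha 6, and lies at chr8:128685654-128733579. The brightest of its 6 probe sets read 9.27, 9.12 and 9.28 in me, 9.14, 8.5 and 8.93 in he, and 9.13, 8.70, 8.68 and 8.94 in WT. The second brightest read 8.78, 8.77 and 8.93 in me, 8.66, 8.11 and 8.43 in he, and 8.74, 8.29, 8.24 and 8.62 in WT. At the second brightest every me array lay above every WT array, as 1 of the 27 probe sets did in either direction, where 1.64% of all probe sets did. The me minus WT difference was 0.36 ± 0.16 (SE, limma adjusted p = 1) at both. With array set as a block it was 0.32 ± 0.14 and 0.33 ± 0.14 (limma adjusted p = 0.989 at both). The exact permutation p at the second was 0.0571, the smallest that 3 against 4 arrays allow. Without WT 2 the blocked differences were 0.20 and 0.21. The 4 dimmer Itgb1 probe sets, at the 46.2nd percentile or below, had blocked differences between -0.03 and 0.06. Probe sets of 1 gene share its RNA, so they are no independent evidence of each other, and here the dim ones did not show the difference of the bright ones.

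Selplg, at chr5:113817798-113832528, read 11.18, 11.50 and 11.55 in me, 11.22, 11.30 and 11.34 in he, and 11.15, 11.11, 11.27 and 11.42 in WT. The me 2 and me 3 arrays lay above every WT array, and me 1 lay inside the WT range. The me minus WT difference was 0.17 ± 0.11 (SE), and with array set as a block 0.20 ± 0.08 (95% interval 0.01 to 0.39, limma adjusted p = 0.989). Set A alone gave 0.23 and set B 0.15. Without me 3 the blocked value was 0.10, and with me 3 counted in set B it was 0.13.

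The ratio of the 3' to the 5' Gapdh control probe sets, a measure of how far the amplified RNA was shortened, also differed between the groups. It was 10.88, 9.92 and 13.83 in me, 9.71, 7.88 and 8.53 in he, and 9.53, 7.84, 9.27 and 7.90 in WT. Every me ratio lay above every he and WT ratio, so a fit with the ratio cannot tell its part from that of genotype. With this ratio as a covariate beside the block, a setting chosen after the data were seen, the me minus WT differences were 0.17 for Itgb7, 0.15 at both Itgb1 probe sets and 0.05 for Selplg. Itga4 at its brightest probe set then differed by 0.13, against 0.32 with the block alone. The part of other cell types' RNA in these differences, such as that of plasma cells, neutrophils and gamma delta T cells, was not tested.

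**Figure D2:**
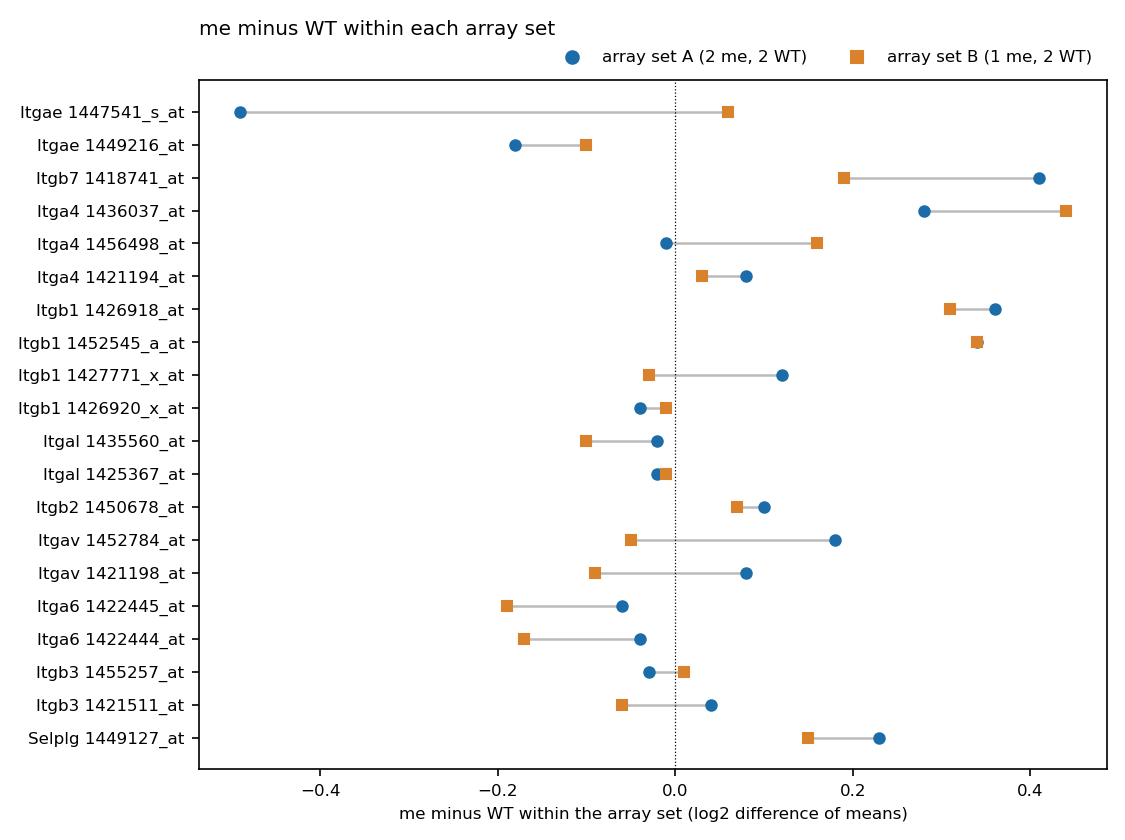
Differences between me and WT (log2) of the 20 member probe sets above the 40th percentile, within array set A (circles) and within array set B (squares). Itgb7 lies at 0.41 for set A and 0.19 for set B, and the markers of the second brightest Itgb1 probe set overlap at 0.34.

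Itgae values were set apart by array set more than by genotype. The gene lies at chr11:73090505-73147449 and encodes alpha E, CD103. Its brighter probe set read 11.62, 10.83 and 11.06 in me, 11.82, 10.84 and 11.14 in he, and 11.77, 11.90, 10.43 and 11.11 in WT. The dimmer read 10.41, 9.42 and 9.94 in me, 10.47, 9.52 and 9.73 in he, and 10.27, 10.43, 9.27 and 9.78 in WT. The genotypes overlapped, and the mean of set A exceeded that of set B by 0.77 and 0.76, the widest gaps among the members. At the brighter probe set me 3, of set A, read 11.06 and lay below he 3 and WT 4 of set B. The me minus WT difference with array set as a block was -0.27 ± 0.20 (95% interval -0.73 to 0.18) and -0.15 ± 0.14 (-0.47 to 0.18), so the data allow a difference in either direction. The sign depended on the setting: with me 3 counted in set B the values were 0.02 and 0.12, with the Gapdh ratio beside the block 0.27 and 0.20, and with array set and sex as blocks -0.37 and -0.22. Within sets the brighter probe set differed by -0.49 (A) and 0.06 (B).

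Itga4 (alpha 4, chr2:79255426-79333114) has 5 probe sets. The brightest read 9.85, 10.44 and 9.88 in me, 9.87, 10.27 and 9.42 in he, and 9.75, 9.41, 10.32 and 9.68 in WT. The me arrays exceeded the WT arrays of their own set, while over all arrays the groups overlapped. The blocked difference was 0.32 ± 0.23 (95% interval -0.21 to 0.84; limma adjusted p = 0.989). Without me 2 it was 0.19. The other 4 probe sets had blocked differences of 0.02 to 0.06.

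The leukocyte pair Itgal and Itgb2, alpha L and beta 2, had small differences. Itgal (chr7:127296139-127335137) read 10.32, 9.92 and 10.29 in me, 10.34, 10.19 and 9.84 in he, and 10.27, 10.38, 10.05 and 9.98 in WT at its brighter probe set. Itgb2 (chr10:77530329-77565708) read 11.08, 10.90 and 11.14 in me, 11.02, 10.99 and 10.66 in he, and 10.97, 11.06, 10.82 and 10.82 in WT. The me arrays of Itgb2 lay above the WT arrays of their set by narrow margins, with differences of 0.10 (A) and 0.07 (B). The blocked me minus WT differences were -0.05 ± 0.08 for Itgal and 0.09 ± 0.07 for Itgb2. Across the 10 arrays, which share these 2 sets, Itgal and Itgb2 had a Pearson r of 0.90, and 0.70 after each set was centred.

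The vitronectin and laminin receptor subunits showed small differences. Itgav (alpha V, chr2:83722303-83806917) had a blocked difference of 0.10 ± 0.12 at its brightest probe set, Itga6 (alpha 6, which binds laminin, chr2:71786886-71858427) -0.13 ± 0.15 and -0.09 ± 0.13, and Itgb3 (beta 3, chr11:104608000-104670476) -0.02 ± 0.15. Of the 27 probe sets, 20 lay above the 40th percentile of all levels. The 7 others were dim, with the deposited values still holding background (the lowest intensity on any array was 72.4). Background can understate a difference, and whether these dim probe sets read their transcripts at all was not tested.

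In he against WT, which shares the WT arrays with the comparison above, no member passed (limma; 0% of all probe sets called, and 0% with the block). Unadjusted, 0 members had a p under 0.05, against 0.298% of all probe sets, and 0 did with the block, against 2.13%. No member probe set was apart over all arrays, where 1.04% of all were. Within the array sets, 1 of the 27 was higher in he, where 3.37% of all were, and 0 were lower, where 4.91% were. That one was Itgb7, with a blocked difference of 0.18 ± 0.08 (limma adjusted p = 1). Its unblocked difference of 0.13 was -0.10 without normalisation and -0.12 after centring on the array median. For Itgb1 the blocked values were 0.03 ± 0.14 and -0.04 ± 0.14, and for Selplg 0.02 ± 0.08.

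In me against he no member passed (limma; 0% called, and 0% with the block). Unadjusted, 1 member had a p under 0.05, against 0.668% of all probe sets, and 1 did with the block, against 3.21%. Both counts were the second brightest Itgb1 probe set, at 0.43 ± 0.17 (limma adjusted p = 1) and 0.37 ± 0.15 with the block. Its me arrays also lay above all he arrays, as 1 of the 27 did, where 2.72% of all did. Within sets, 5 of the 27 were higher in me, where 8.31% of all were, and 2 were lower, where 9.61% were. The 2 lower were both Itgae probe sets, with blocked differences of -0.38 ± 0.22 and -0.25 ± 0.16. By Xist and Eif2s3y, 2 me arrays, 0 he arrays and 2 WT arrays were male, and with set and sex as blocks the Itgae values were -0.73 and -0.51 (limma adjusted p = 0.756 at both). With the Gapdh ratio beside the set block they were 0.11 and 0.06, so the sign depended on that setting. With me 3 counted in set B they were -0.10 and 0.02. The size thus depended on the set given to that array, and at the dimmer probe set the sign did too. The moderated F test over the genotypes called 0% of all probe sets, in the fit without a block and in the one with array set added. Unadjusted, 0 members had a p under 0.05 without a block, against 0.442% of all, and 1 did with the block (Itgb7), against 2.86% of all.

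**Figure D3:**
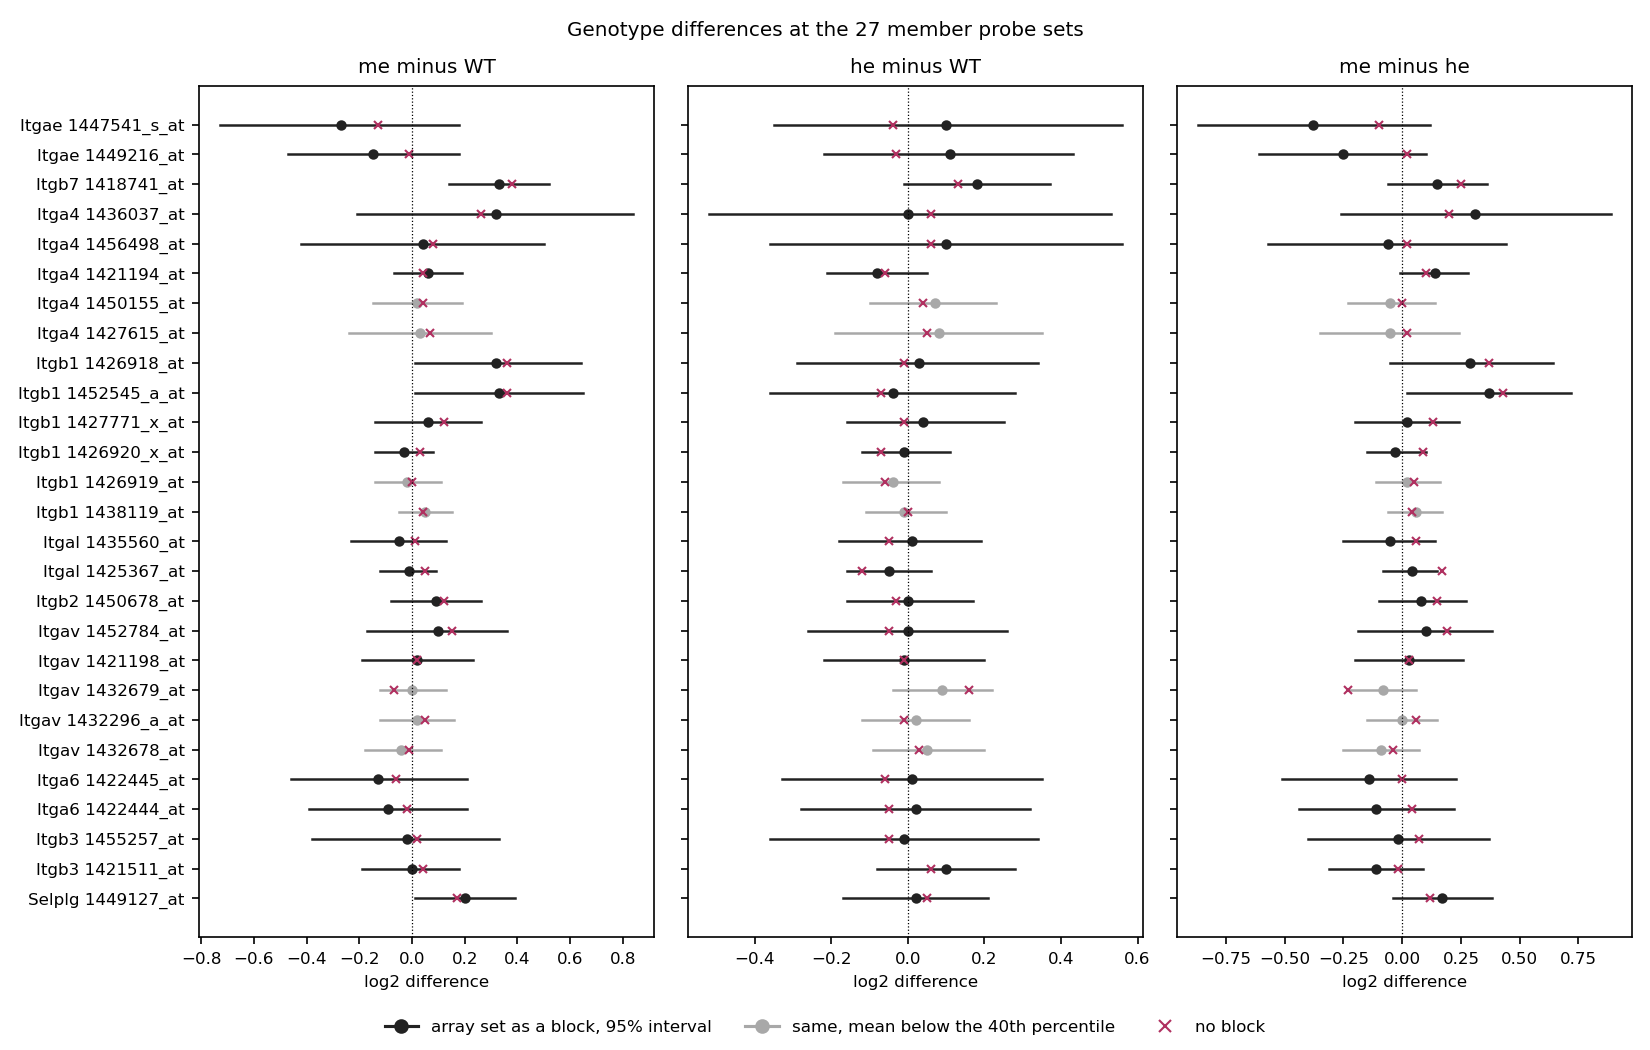
Differences (log2) of every member probe set for me minus WT, he minus WT and me minus he with array set as a block (points, with 95% intervals; grey for probe sets below the 40th percentile) and without it (crosses). The intervals of Itgb7, both brighter Itgb1 probe sets and Selplg for me minus WT exclude 0, before adjustment.

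Genes around the receptors gave no adjusted call either (limma with the block, 0 in each list). The single genes below were picked by the smallest unadjusted p of their list for me minus WT with the block. Their separation in that comparison follows in part from this choice. Of 33 measured activation and adaptor genes, 16 were higher and 17 lower in me than in WT, with a median of 0. Fyb (the adaptor ADAP, which links the T cell receptor to integrins) read 12.08, 12.18 and 11.95 in me and 11.89, 11.59, 11.88 and 12 in WT, a blocked difference of 0.25 (95% interval 0.04 to 0.45, limma adjusted p = 0.989). Rap1b, a GTPase that opens integrins, had a blocked difference of 0.33. Every me array lay above every WT array, where 1.64% of all probe sets were apart in either direction. WT 2 was lowest at 11.92 and the other WT arrays read 12.53 to 12.55. The he arrays of Rap1b also lay above every WT array, where 1.04% of all probe sets were apart. Of 20 selectin scaffold and glycosylation genes, 13 were higher and 7 lower, with a median of 0.04. Cd44, which carries selectin ligands, had -0.29 and was lower within both sets, where 7.83% of all probe sets were. Of 16 TGF-beta genes, 7 were higher and 9 lower, with a median of -0.02. Skil, an inhibitor of TGF-beta signalling, read 10.83, 10.77 and 10.55 in me and 11.34, 11.19, 11.01 and 10.86 in WT, a blocked difference of -0.42 (limma adjusted p = 0.989). Tgfbr3, a TGF-beta co-receptor, had -0.47, and its me arrays lay below all WT arrays, against the same 1.64% apart. Over all genes, 49.4% were higher. Other integrin subunits (16 measured, 10 higher and 6 lower, median 0.02) and counter-receptors (16 measured, 7 and 9, median -0.01) had small medians. The other genes named by their rank in a list had blocked differences of 0.17 (Rap1a), -0.13 (Cd226), 0.23 (Glg1), 0.20 (Chst2), -0.16 (Gcnt1), -0.29 (Tgfbr1), -0.18 (Furin), -0.10 (Itga3), 0.11 (Itga7), 0.13 (Itgam), 0.11 (Itgbl1), -0.12 (Sele), 0.14 (Vtn), -0.09 (Icam4) and 0.16 (Fn1).

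**Figure D4:**
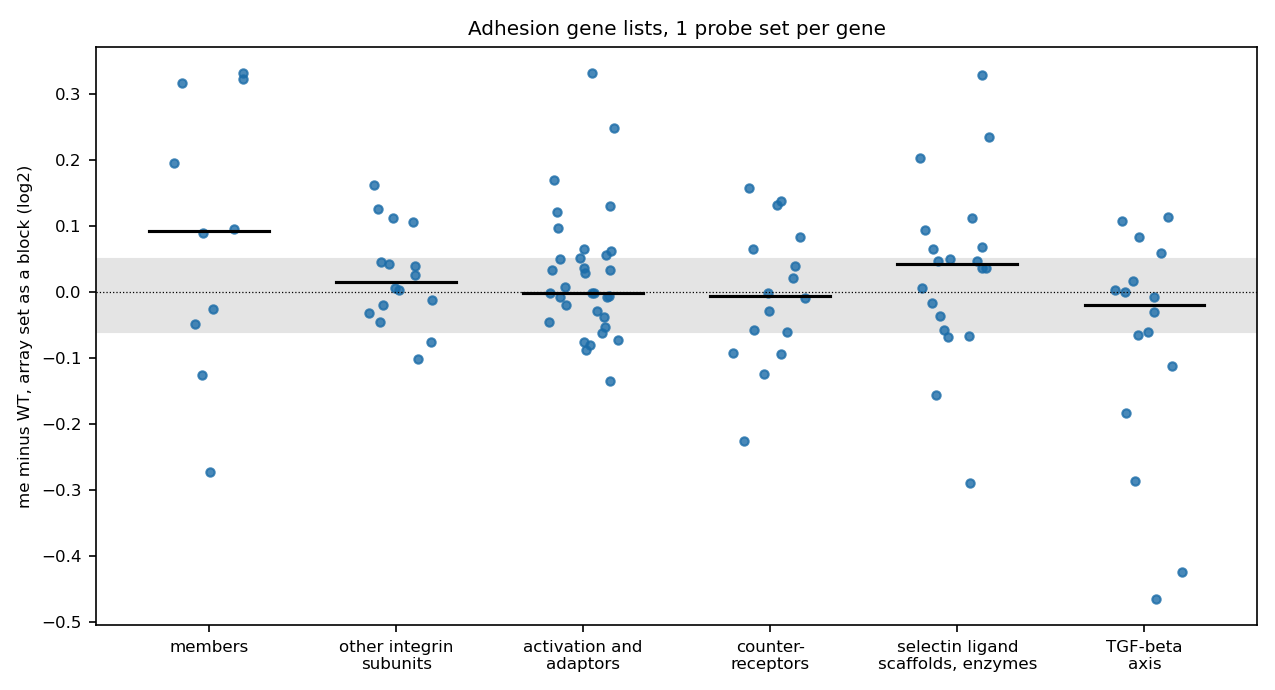
Blocked me minus WT differences (log2) of the genes in each list, 1 point per gene, with bars for medians and a grey band for the middle quartiles (-0.06 to 0.05) over all probe sets. The points use the brightest probe set of each gene, while the band covers all probe sets, dim ones included. The members' median, at 0.09, lies above the band, but over all 27 member probe sets it was 0.02, inside the band. The medians of the other lists lie inside it, and Skil and Tgfbr3 lie lowest in the TGF-beta list.

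The genes most like a member were found by Pearson r over the 10 arrays after each set was centred, among 11378 genes at or above the median level, as a description. For Itgae they were Tacc1 (0.941), BC004004 (0.934) and Cog5 (0.924). For Itgb1 they were Rap1gap2 (0.956), Tlr2 (0.928) and Rtn3 (0.907). For Selplg they were Lsp1 (0.969), Cdc42bpg (0.955) and Sprr2d (0.937). For Itgb7, chosen after the data were seen, they were Oas1a (0.958), Twistnb (0.956) and Rab27a (0.939). Between members, Itgb7 and Selplg had r = 0.81 within sets (0.22 over all), and Itgae and Itgb7, which pair in the protein, had -0.53 (0.32 over all). The array me 3 held the highest value of Itgb7 (12.36), Selplg (11.55) and Lsp1 (11.27). How far the r values of these genes rest on that array was not tested.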

How the data were processed

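The authors deposited 1 intensity value per probe set and array on a linear scale, from biotin-labelled cRNA made, per the labels' protocols, from 10 ug of aRNA amplified from 20 ng of total RNA. The sources used here do not give their summarisation or scaling. Of 45101 probe sets, 64 controls were left out after normalisation; 34945 of the rest name 1 gene, 932 several and 9160 none, so a member annotated only together with another gene is not covered.

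Values were computed as log2(intensity + 32), quantile normalised, and fitted on all 10 arrays with limma 3.58.1 (R 4.3.3) (7 residual degrees of freedom; Benjamini-Hochberg over all probe sets, threshold 0.05; intervals at 95%). Array sets came from average linkage on the correlation. The number of arrays limits the precision. Exact permutation tests were 2-sided. The fit was tested on simulated data.

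Named were all member probe sets, up to 4 genes per list with the smallest p with the block, the Treg genes, the 3 genes most like Itgae, Itgb1 and Selplg, and Ptpn6. The members, lists and rules were chosen with earlier results of these data known. Alternatives were a replicate block, set, sex and Gapdh terms, me 3 counted in the other array set, a low-value filter, other pseudocounts and scalings, array weights and leaving out each array. List genes with no probe set of their own were not analysed here.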

Additional observations from a re-analysis of the deposited data

How the results depend on the processing

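Among the alternatives, the count of called probe sets for me minus WT was 3 with array set as a block, 5 with the first principal component as a covariate and 2 with array weights, against 0 in the fit without them, and no member was among them. Leaving out each array in turn, with or without the set block, gave 0 to 5 for me minus WT, 0 to 2 for me minus he and 0 to 2 for the F test. Array weights, whose estimation did not converge, gave me 3 a weight of 26.6 and he 2 a weight of 7.1. They called 27308 probe sets and 14 member probe sets for me minus he and 22802 in the F test. For me minus he the 2 brighter Itgb1 probe sets were then 0.73 and 0.78, against 0.37 and 0.43 without weights. Itgb7 was 0.61, against 0.25. The brightest Itga4 probe set was -0.32 (limma adjusted p = 0.0386), against 0.20 without them. The cause of these changes was not tested. Over 34 settings, 8 of 27 member differences took no opposite sign for me minus WT, 3 for he minus WT and 8 for me minus he. The replicate numbers do not pair the arrays: deviations of same-numbered arrays correlated at 0.90 to 0.94 for number 1, -0.87 to 0.69 for number 2 and -0.51 to 0.73 for number 3, and the fit with a replicate block called 0 probe sets in each comparison. The number of arrays, 3 to 4 a group, limits all of these.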
